A study of Mus musculus with 8 samples.

Results

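The genes described here are 32 genes of vesicle transport between the endoplasmic reticulum (ER) and the Golgi apparatus, read out in single cells of mouse pancreatic islets. They were taken by name from the 24421 genes of the count tables, and all 32 were present in the tables of all 8 samples. They comprise 7 p24 proteins (Tmed2, Tmed3, Tmed4, Tmed5, Tmed7, Tmed9 and Tmed10), 10 genes of the COPII coat and its assembly (Sec13, Sec23a, Sec23b, Sec24d, Sec31a, Sar1a, Sar1b, Preb, Sec16a and Mia3), 7 subunits of the COPI coat (Copa, Copb1, Copb2, Cope, Copg1, Copz1 and Arcn1), 3 cargo receptors (Lman1, Lman2 and Surf4), 3 KDEL receptors (Kdelr1, Kdelr2 and Kdelr3) and the SNARE proteins Sec22b and Bet1.

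Proteins made for secretion are folded in the ER and leave it in vesicles with a COPII coat, while COPI-coated vesicles carry escaped ER proteins and recycling machinery back from the Golgi. The p24 proteins and the cargo receptors cross the membrane and link cargo to the coats, KDEL receptors catch ER chaperones that have escaped, and SNARE proteins drive the fusion of vesicles with the target membrane. Islet endocrine cells use this route for all of their peptide hormones, and in β-cells the main cargo is proinsulin.

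The study asked how β-cells replicate after partial pancreatectomy (PPTx), an operation that removes part of the pancreas and is followed by replication of the remaining β-cells. All samples came from male C57BL/6J mice aged 8 weeks. The 4 PPTx samples were islets isolated 2 days after excision of 50% of the pancreas from the splenic side, and the 4 control samples were islets of mice with no operation, so the groups differ in surgery and in the region of pancreas sampled as well as in tissue loss, and these cannot be told apart. Each sample pooled islets of 1 to 3 mice, so p-values of PPTx against control measure the spread between such pools. P-values between cells of the same samples measure how far those differences vary from sample to sample.

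The tables held 1240 cells, of which 1232 passed the limits on genes and unique molecular identifiers (UMIs, which count captured transcripts), 520 control and 712 PPTx. Samples held between 236645 and 1580152 UMIs, and the median kept cell of a sample had between 3328 and 8677 UMIs. Cells were classed by their dominant hormone transcript, which gave 940 β-like cells (Ins1 and Ins2), 129 PP-like cells (Ppy), 114 α-like cells (Gcg), 13 δ-like cells (Sst) and 1 ε-like cell (Ghrl), with 22 mixed cells and 13 without a dominant hormone left out. Sums of markers that did not define the classes agreed in direction with the names of the β-, α- and PP-like classes. The 8 β-cell markers summed to 11001 to 14504 CPM in the β-like cells of a sample (UMIs scaled to 1000000 UMIs outside the hormone genes). They summed to 1339 to 1763 in α-like cells and to 533 to 1215 in PP-like cells, with Mafa and Pdx1 at 0 in the α-like cells. Markers of α-cells summed to 82970 to 90008 in α-like and 5019.8 to 7328 in β-like cells. Markers of PP-cells summed to 1662 to 2723 in PP-like and 55.9 to 268 in β-like cells, with Aqp3 at 0 in both. The δ-like cells were not checked in this way. Among the non-β hormone cells, 69.3% were α-like and 23.4% PP-like in control samples, against 15.8% and 80.8% in PPTx samples. Acinar markers summed to 6.26 to 42.0 in control β-like cells and 13.9 to 331 in PPTx β-like cells, with Cpa1 and Reg1 at 0 in the control cells. Endothelial, immune and fibroblast markers summed to at most 28.0, 6.26 and 43.8 in β-like cells, with Ptprc and Lyz2 at 0. The tables of PPTx samples 3 and 4 shared 1 cell barcode.

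Transcripts of the 32 genes together took up a larger share of the non-hormone transcriptome in β-like cells than in α-like or PP-like cells, and within β-like cells a larger share in PPTx than in control samples. Throughout, the level of a gene is given in these CPM, its UMIs per 1000000 UMIs outside 8 hormone genes (Ins1, Ins2, Gcg, Sst, Ppy, Pyy, Ghrl and Iapp), because insulin transcripts alone took 58.6% of the UMIs of β-like cells and 0.861% and 0.957% in α-like and PP-like cells. The summed level in β-like cells was 11077, 11804, 13451 and 12687 in control samples 1 to 4 and 13874, 15084, 14218 and 14828 in PPTx samples 1 to 4. Every PPTx sample lay above every control sample, with means of 14501 ± 554 and 12255 ± 1034 (SD, n = 4 each), a ratio of 1.18. In α-like cells of control samples 2, 3 and 4, the samples with at least 10 such cells, the sums were 6897, 7263 and 7315. PP-like cells gave 11028 in control sample 4 and 10235, 10868, 10810 and 10316 in the PPTx samples. The α-like sums were thus below all PP-like sums, and the PP-like sums were below all β-like sums, by a narrow gap between 11028 and 11077. No p is given for these sums, because the genes were proposed with results of these data known.

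This order depends on the denominator. Per 1000000 of all UMIs, the sum was 4205 ± 218 (SD, n = 4) in control and 5419 ± 634 (n = 4) in PPTx β-like cells, 3785 ± 151 (n = 3) in α-like cells and 3971 ± 414 (n = 4) in PPTx PP-like cells. On this scale the α-like samples (3694 to 3959) and PPTx PP-like samples (3667 to 4564) overlapped each other, and the PP-like samples overlapped control β-like samples (3996 to 4394), while PPTx β-like samples (4931 to 6340.1) stayed above all of them. The ratio of α-like to β-like cells was 0.889 on this scale and 0.567 outside the hormone genes, and that of PP-like to β-like cells was 0.770 and 0.757. The ratio of PPTx to control β-like cells was 1.29 per 1000000 of all UMIs.

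**Figure D1:**
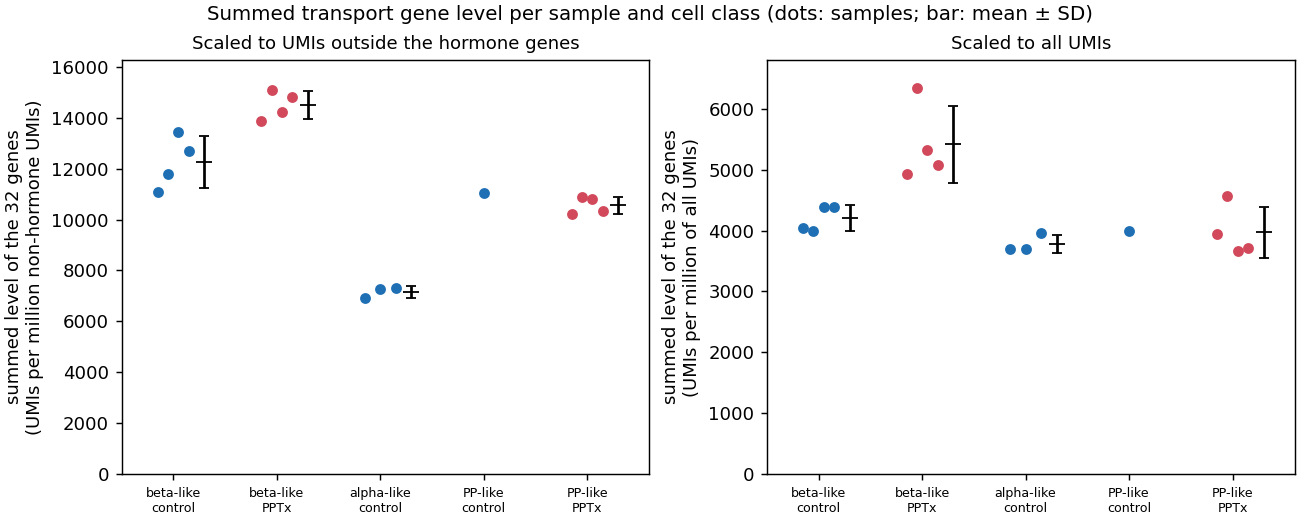
Summed level of the 32 transport genes (CPM outside the hormone genes, vertical axis) by cell class and group, with a dot for each sample and a bar for mean ± SD where a group has several samples. The control β-like samples lie between 11077 and 13451 and the PPTx β-like samples between 13874 and 15084, while the α-like samples lie between 6897 and 7315.

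The difference between cell types was uneven across the machinery. The 3 cargo receptors summed to 2636 ± 229 in control β-like cells (SD, n = 4), 815 ± 83.9 in α-like cells (n = 3) and 1644 ± 238 in PPTx PP-like cells (n = 4). COPII genes summed to 2893 ± 253, 1566 ± 185 and 2481 ± 408 in the same groups. COPI subunits summed to 2760.1 ± 259 in control β-like cells, 1972 ± 46.1 in α-like cells and 2828 ± 189 in PPTx PP-like cells, with no overlap between the α-like and either β-like group. The p24 proteins summed to 2795 ± 333, 2171 ± 275 and 2440.1 ± 57.1, and the KDEL receptors to 731 ± 127, 396 ± 74.5 and 736 ± 76.9. In the β-like cells of the same PPTx samples the sums were 3376 ± 266 for COPII, 3154 ± 172 for COPI, 3426 ± 308 for p24 proteins and 922 ± 45.8 for KDEL receptors, and for each of these 4 roles the PPTx PP-like samples lay below all PPTx β-like samples. Against control β-like samples the PPTx PP-like samples overlapped in the same 4 roles.

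All non-β hormone cells were first compared with the β-like cells of the same sample, over all 8 samples, by the quasi-likelihood test of edgeR on summed UMIs with the sample as a block, and p-values were adjusted over all genes tested. Of the 29 members that could be tested, 15 were lower in non-β cells (adjusted p under 0.05) and none was higher. Among all genes tested in this comparison, 22.3% were lower and 21.4% higher. The median log2 fold change of the members was -0.50, against -0.01 over all genes. By role, the calls covered 3 of 3 cargo receptors, 7 of 9 COPII genes tested, 2 of 6 p24 proteins, 1 of 7 COPI subunits, 1 of 2 KDEL receptors and 1 of 2 SNAREs. Tmed5, Sec23a and Kdelr3 had too few UMIs to be tested. The non-β cells of control samples are mostly α-like and those of PPTx samples mostly PP-like, so these values mix both types. Without scaling for composition the median of all genes moved to 0.19, and 8 members were called lower and 1, Tmed7, higher. In that setting 9 of 29 members were called, below the 44.4% of all genes called in either direction.

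The cargo receptors were lower in non-β cells together. Lman1, which encodes the lectin ERGIC-53 that carries glycoproteins such as coagulation factors out of the ER, had a lowest, median and highest level of 923, 1128 and 1289.7 over the β-like cells of 8 samples and of 227, 291 and 669.9 over their non-β cells. No non-β sample reached the lowest β-like sample, and the log2 fold change was -1.61 (SE 0.14, adjusted p = 2.17e-13, lower in 8 of 8 samples). Surf4, the receptor for soluble cargo with N-terminal sorting signals, had 685, 1244 and 1471 in β-like cells and 492, 688 and 1102 in non-β cells. The ranges of Surf4 overlapped between samples, yet within each sample the non-β cells were lower (log2 fold change -0.73, SE 0.11, adjusted p = 1.08e-06, 8 of 8 samples). Lman2, the lectin VIP36, had 424, 532 and 741 in β-like cells and 0, 187 and 538 in non-β cells (log2 fold change -1.07, SE 0.19, adjusted p = 6.68e-06). It was lower in 7 of 8 samples, and its zero came from the 10 non-β cells of control sample 1, in which a count of 0 allows up to 227 CPM.

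Of the p24 proteins, Tmed9 and Tmed2 were lower and the others were not called. Tmed9, a p24 protein of the intermediate compartment, had a lowest, median and highest level of 519, 654 and 763 in β-like cells and 151, 256 and 292 in non-β cells. Its ranges did not overlap, and its log2 fold change was -1.23 (SE 0.14, adjusted p = 9.87e-10, lower in 8 of 8 samples). Tmed2 had 185, 353 and 479.9 against 75.7, 142 and 419.9 (log2 fold change -0.97, SE 0.18, adjusted p = 1.77e-05, 7 of 8 samples). Tmed3, by contrast, differed by 0.01 (SE 0.13), with a 95% interval from -0.24 to 0.27. Tmed4 and Tmed7 were the only other members with a fitted value above 0, at 0.05 and 0.27, and neither passed the test.

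In the COPII group the called genes covered the coat, the GTPases and the exit-site organisers. Mia3, whose protein TANGO1 packs bulky cargo such as procollagen at ER exit sites, ran from 462 to 680.2 in β-like cells and from 146 to 530.1 in non-β cells (log2 fold change -0.65, SE 0.15, adjusted p = 0.000504, lower in 7 of 8 samples). Sec23b, a paralog of the inner coat subunit that activates the Sar1 GTPase, ran from 182 to 480.1 and from 0 to 278 (-0.59, SE 0.17, adjusted p = 0.00365, 8 of 8 samples). Sar1a, the GTPase that starts coat assembly, ran from 336 to 678 and from 0 to 490.4 (-0.51, SE 0.15, adjusted p = 0.00398, 8 of 8 samples). In each of these genes the highest non-β samples overlapped the β-like range. Preb, the exchange factor that loads Sar1 with GTP, ran from 200.2 to 286 in β-like cells and from 62.7 to 269 in non-β cells (-0.68, SE 0.20, adjusted p = 0.00425, 7 of 8 samples). Sar1b, Sec13 and Sec16a were also called, with log2 fold changes of -0.57, -0.50 and -0.54.

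The remaining 3 calls came from the other roles. Cope, the epsilon subunit of COPI, ran from 629 to 1015 in β-like cells and from 303 to 787 in non-β cells (log2 fold change -0.53, SE 0.12, adjusted p = 0.000407, lower in 8 of 8 samples). Kdelr2 ran from 364 to 720.1 and from 157 to 459 (-0.58, SE 0.15, adjusted p = 0.0011, 6 of 8 samples). Bet1, a SNARE of the fusion complex for ER-derived vesicles, ran from 214 to 316 and from 0 to 214 (-0.72, SE 0.18, adjusted p = 0.0012, 8 of 8 samples). Cope was the single COPI subunit called here, and the fitted values of the other 6 subunits were also below 0.

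To separate the endocrine types, α-like cells were compared with β-like cells in control samples 2, 3 and 4, with 11, 52 and 26 α-like cells. Of 31 members tested, 14 were lower in α-like cells and none was higher, against 14.2% of all genes tested lower and 11.4% higher. The median of the members was -0.63 and that of all genes -0.05. The calls comprised all 3 cargo receptors, 4 COPII genes (Mia3, Sar1a, Preb and Sec24d), 3 COPI subunits (Cope, Copa and Copg1), Tmed9, Tmed2, Kdelr2 and Bet1. The number of calls fell to 7 without control sample 3 or without control sample 4 (with 16.2% and 17.6% of all genes called in either direction, against 25.6% with all samples), and to 5 with DESeq2 (10.1% of all genes).

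The cargo receptors again had low levels in α-like cells. Lman1 was at 363, 237 and 252 in α-like cells of control samples 2, 3 and 4 and between 991 and 1090.3 in the β-like cells of those samples (log2 fold change -1.87, SE 0.21, adjusted p = 1.70e-10). Surf4 was at 311, 418 and 466 in α-like and between 1082 and 1276 in β-like cells (-1.40, SE 0.18, adjusted p = 1.31e-08). Lman2 was at 51.9, 172 and 175 against 424 to 588 (-1.54, SE 0.27, adjusted p = 1.13e-05). For each of these receptors the highest α-like sample was below the lowest β-like sample.

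Members of the other roles that were called were also lower in 3 of 3 samples, except Copg1, which was lower in 2 of 3. Mia3 was at 156, 197 and 272 in α-like and 500.4 to 680.2 in β-like cells (log2 fold change -1.39, SE 0.24, adjusted p = 7.59e-06). Tmed9 was at 207, 221 and 252 against 519 to 702 (-1.32, SE 0.24, adjusted p = 1.18e-05), and Tmed2 was at 104, 156 and 97.0 against 288 to 439 (-1.39, SE 0.30, adjusted p = 0.000206). Neither p24 gene overlapped between the classes. Sar1a was at 311, 278 and 175 against 510.3 to 545 (-0.93, SE 0.24, adjusted p = 0.00187), and Preb was at 104, 81.9 and 77.6 against 200.2 to 263 (-1.37, SE 0.37, adjusted p = 0.0039). Kdelr2 was at 311, 237 and 233 against 457 to 509 (-0.83, SE 0.24, adjusted p = 0.00663), and Bet1 was at 104, 106 and 77.6 against 217 to 268 (-1.21, SE 0.35, adjusted p = 0.00697). These genes were separated as well, with no α-like sample in the β-like range. In the COPI coat, Cope was at 415, 442 and 466 against 694 to 767 (-0.59, SE 0.19, adjusted p = 0.0151). Copa, the alpha subunit that reads retrieval signals, was at 570.4, 262 and 291 against 530.3 to 644 (-0.67, SE 0.22, adjusted p = 0.0187), where control sample 2 lay inside the β-like range. Copg1 and Sec24d were called with values of -0.73 and -1.09.

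Some members were not low in α-like cells. Sec23a, the paralog of Sec23b, ranged from 57.3 to 104 in α-like cells and from 41.0 to 56.7 in β-like cells. It was higher in 3 of 3 samples, but its log2 fold change of 0.84 (SE 0.48) had an adjusted p of 0.215. Tmed3 gave 957 ± 164 in α-like cells (SD, n = 3), and its log2 fold change was 0.25 (SE 0.16, adjusted p = 0.263). Without scaling for composition (no TMM factors), Sec23a, Tmed3 and Tmed7 were called higher and 6 members lower, while the median of all genes moved to 0.49. These 9 of 31 members were below the 36.4% of all genes called in either direction in that setting. Kdelr3 gave 1 UMI in the α-like and 24 UMIs in the β-like cells of these samples and was not tested.

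PP-like cells were compared with β-like cells in control sample 4 and the 4 PPTx samples, with 13, 18, 44, 19 and 16 PP-like cells. Of 31 members tested, 11 were lower in PP-like cells and 1 was higher, against 13.9% of all genes tested lower and 12.4% higher. The median of the members was -0.33 and that of all genes -0.03. The lower calls were Lman1, Lman2, Surf4, Tmed9, Tmed2, Tmed5, Sec23b, Sar1b, Cope, Kdelr2 and Bet1. The number of members called fell to 6 without PPTx sample 2, with 20.1% of all genes called in either direction against 26.4% with all samples. The β-like cells of control sample 4 enter both this comparison and that of α-like cells, so the sets of calls are not independent of each other. Markers of α-cells summed to 10607 to 17921 CPM in the PP-like and 5944 to 7328 CPM in the β-like cells of PPTx samples. Ductal markers summed to 459 to 1161 and 394 to 847 CPM there, and acinar markers to 50.7 to 459 and 13.9 to 331 CPM. In control sample 4 the PP-like cells had ductal markers at 1316 CPM, against 430.2 to 473 CPM in control β-like cells. The part of these markers was not tested.

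The member higher in PP-like cells was Kdelr3, a KDEL receptor paralog with few transcripts. Its level was 188 in the PP-like cells of control sample 4 and 96.6, 75.2, 102 and 229 in those of PPTx samples 1 to 4, against 22.9 to 37.4 in the β-like cells of the same samples. Every PP-like sample was above every β-like sample, and the log2 fold change was 2.06 (SE 0.45, adjusted p = 5.08e-05, higher in 5 of 5 samples). These levels rest on 26 UMIs in PP-like and 46 UMIs in β-like cells, and the gene passed the filter on low counts through the PP-like cells, the class where it was high. With no such filter the log2 fold change was 1.72 (adjusted p = 0.00237) in PP-like cells, -2.39 (adjusted p = 0.389) in α-like cells and 1.18 (adjusted p = 0.0117) in all non-β cells. Leaving out each sample in turn gave log2 fold changes from 1.87 to 2.17. After each cell was thinned to 2000 UMIs, a Kdelr3 UMI was found in 9.30% of PP-like cells (exact Clopper-Pearson 95% interval 4.90 to 15.7), 1.17% of β-like cells (0.586 to 2.08) and 1.75% of α-like cells (0.213 to 6.19), intervals that cover counting error only. Without thinning the shares were 19.4%, 5.96% and 1.75%, at class medians of 5221, 6095 and 3962.5 UMIs per cell. Hormone transcripts gave a measure of RNA from other cells: after thinning, an Ins1 UMI was found in 82.5% of α-like and 86.0% of PP-like cells and a Ppy UMI in 44.5% of β-like cells. Its part in the shares of cells given here was not tested.

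The other KDEL receptors did not share this pattern. Kdelr2 was at 439 in the PP-like cells of control sample 4 and 289.7, 387, 355 and 172 in PPTx samples 1 to 4, below the β-like range of 460.3 to 720.1 in every sample (log2 fold change -0.72, SE 0.20, adjusted p = 0.00205). Kdelr1 ranged from 204 to 381 in PP-like and from 203 to 377 in β-like cells, with a log2 fold change of 0.07 (95% interval -0.37 to 0.51). Thus 1 paralog was higher, 1 was lower and 1 was not separable between these cell types.

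Among the cargo receptors, Lman1 was at 376 in the PP-like cells of control sample 4 and 232, 677, 355 and 459 in PPTx samples 1 to 4, against 991 to 1289.7 in β-like cells (log2 fold change -1.44, SE 0.18, adjusted p = 3.12e-14, lower in 5 of 5 samples). Surf4 was at 909, 869, 914, 812 and 1146 against 1207 to 1471 (-0.53, SE 0.16, adjusted p = 0.00436, 5 of 5 samples). Lman2 was at 251, 193, 215, 533 and 172 against 424 to 635 (-0.88, SE 0.21, adjusted p = 0.000236, 4 of 5 samples). Lman1 and Surf4 did not overlap between the classes, while the PP-like cells of PPTx sample 3 reached the β-like range for Lman2. The thinned share of cells with a Lman1 UMI was 54.4% in β-like, 23.7% in α-like and 24.8% in PP-like cells, and that with a Surf4 UMI was 58.2%, 34.2% and 48.8%.

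Of the p24, coat and SNARE genes, 7 were lower in PP-like cells. Tmed9 was at 282, 251, 258, 329.9 and 287 against 570.3 to 763 in β-like cells (log2 fold change -1.23, SE 0.20, adjusted p = 2.75e-08, lower in 5 of 5 samples). Tmed2 was at 125, 154, 139.7, 203 and 459 against 185 to 479.9 (-0.73, SE 0.25, adjusted p = 0.016, 4 of 5 samples), and Tmed5 was at 31.3, 38.6, 32.2, 0 and 172 against 83.3 to 120.0 (-1.34, SE 0.50, adjusted p = 0.0306, 4 of 5 samples). For Tmed2 and Tmed5 the PP-like cells of PPTx sample 4 were the highest, and the count of 0 for Tmed5 in PPTx sample 3 allows up to 76.1 CPM. The levels of Tmed5 rest on 9 UMIs in PP-like and 166 UMIs in β-like cells. Tmed5 passed the filter on low counts through the β-like cells, the class where it was high. Sec23b was at 282, 251, 247, 127 and 172 against 300.2 to 480.1 (-0.73, SE 0.23, adjusted p = 0.00904, 5 of 5 samples). Sar1b, the second Sar1 GTPase, was at 407, 251, 226, 102 and 57.3 against 308 to 366 (-0.61, SE 0.23, adjusted p = 0.0368, 4 of 5 samples). Control sample 4 was the exception for Sar1b. Cope was at 470.0, 483, 742, 685 and 802 against 767 to 1015 (-0.53, SE 0.17, adjusted p = 0.00977, 5 of 5 samples), and Bet1 was at 125, 116, 183, 228 and 229 against 214 to 316 (-0.67, SE 0.26, adjusted p = 0.0435, 4 of 5 samples). The other COPI subunits were not called, with values of 0.03 for Copa, 0.14 for Copg1 and 0.11 for Copb2.

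Mia3 and Surf4 can be set side by side in both cell types. Mia3 had a log2 fold change of -1.39 (95% interval -1.88 to -0.91) in α-like and -0.24 (-0.60 to 0.11) in PP-like cells, and Surf4 had -1.40 (-1.77 to -1.04) and -0.53 (-0.83 to -0.22). A direct comparison of α-like with PP-like cells was not made, since only control sample 4 held at least 10 cells of both.

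**Figure D2:**
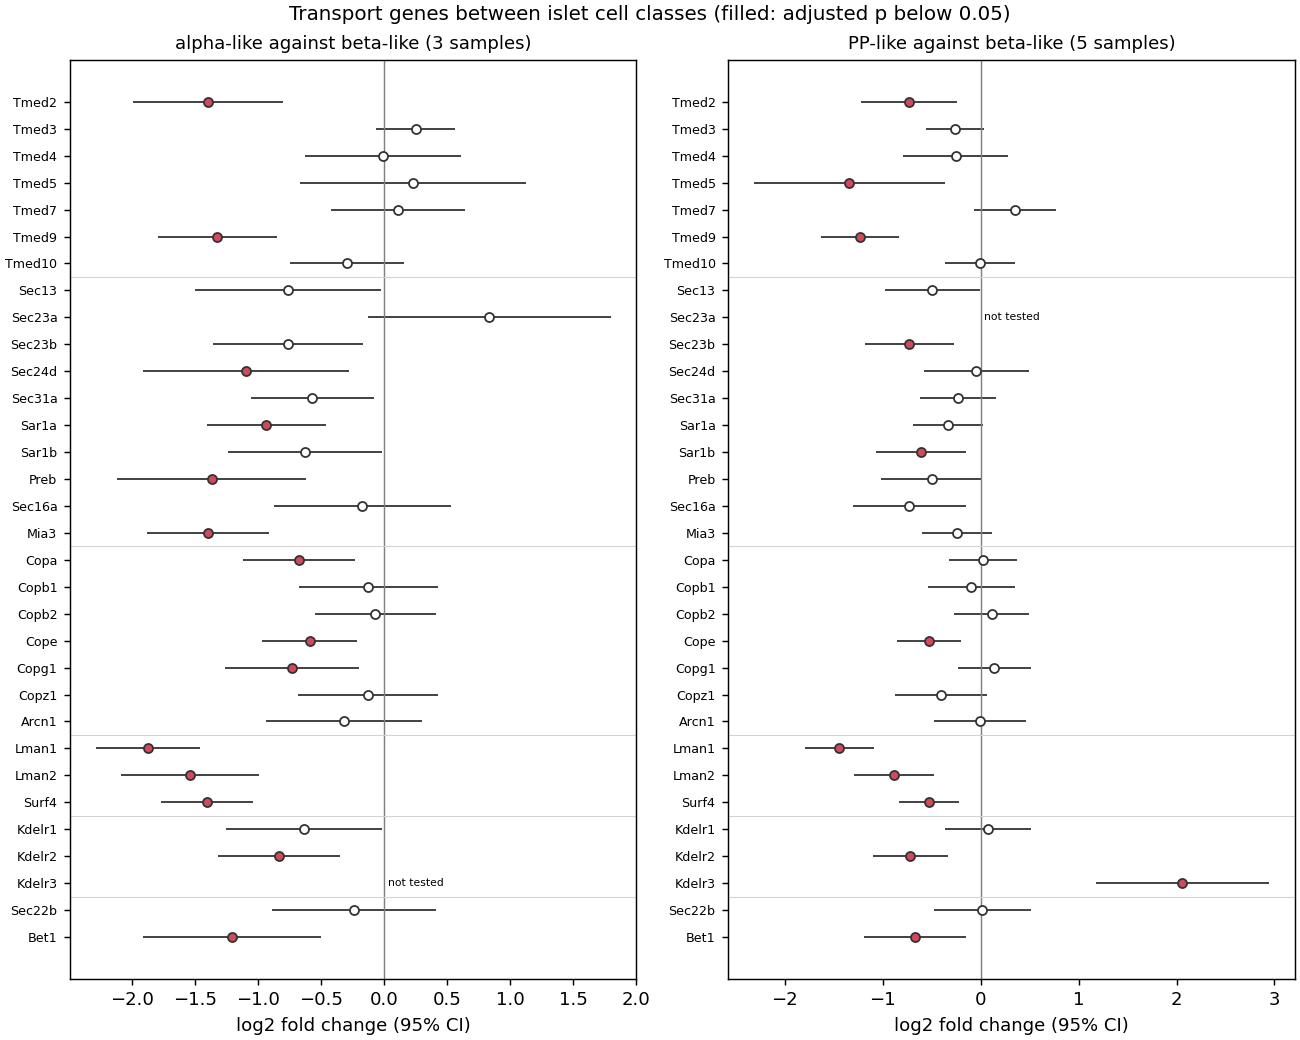
Log2 fold change of each member in α-like (left, 3 samples) and PP-like cells (right, 5 samples) against the β-like cells of the same samples, with 95% intervals as lines, filled points for adjusted p under 0.05 and grey lines between roles. Most points lie to the left of 0, with Lman1 at -1.87 and -1.44, and Kdelr3 lies to the right at 2.06 in PP-like cells.

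**Figure D3:**
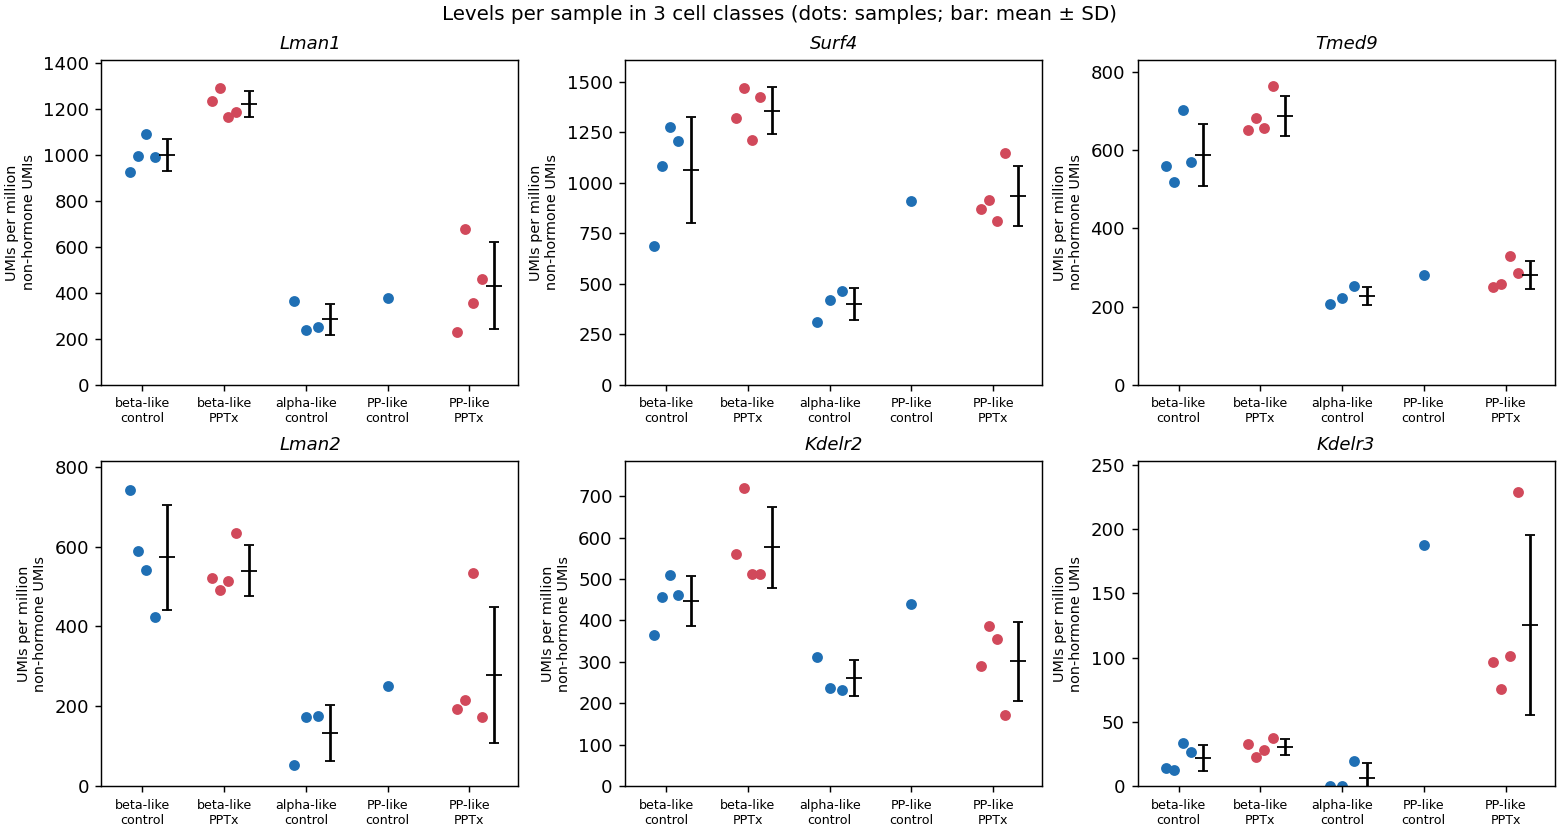
Level per sample (CPM outside the hormone genes, vertical axis) of transport genes with low p between the cell classes, by class and group, with a dot for each sample and a bar for mean ± SD where a group has several samples. For Lman1 the α-like samples lie between 237 and 363 and the β-like samples between 923 and 1289.7.

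The promoters of the members were examined for short motifs of the ER stress factors XBP1 and ATF6, whose targets include secretory pathway genes. RefSeq promoters on GRCm38.p6, from 250 bases before to 50 after the start of a gene, were found for 27 of the 32 members. The letters GACGTG, on either strand, stood in 12 of 27 member promoters (44.4%) and in 7.15% of the promoters of 27025 genes. These 27025 genes were not limited to genes expressed in islets. The 12 members were Tmed3, Sec13, Sec23a, Sec24d, Sar1a, Copb1, Copb2, Copg1, Copz1, Kdelr3, Mia3 and Sec16a. Of them, Tmed3, Sec23a, Copb1, Copb2 and Copz1 were called in no comparison by edgeR with TMM factors, the low-count filter and all samples. The longer TGACGTG, which contains GACGTG, stood in 6 of 27 (22.2%) and in 2.22% of all: Sec23a, Sec24d, Copb1, Copb2, Kdelr3 and Mia3. CACGTG stood in 2 of 27 (7.41%) against 8.09%. The ER stress response elements in their full form, ERSE (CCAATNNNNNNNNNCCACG) and ERSE-II (ATTGGNCCACG), were matched in no member promoter and in 0.137% and 0.0444% of all promoters. A match describes letters in this window and is no measurement of binding. A link between the motifs and the levels of the members was not tested.

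The windows of 30 bases around the motif are printed for Kdelr3, the gene higher in PP-like cells, for Mia3 and Sec24d, called lower in α-like cells, and for Tmed3, the gene with the lowest p after PPTx. All lie upstream of the annotated start, on the strand of the gene, and capitals mark GACGTG or its reverse complement CACGTC. The windows of Kdelr3 are chr15:79516316-79516345 and chr15:79516367-79516396 (plus strand), with the motif beginning 80 and 29 bases before the start. That of Mia3 is chr1:183369633-183369662 (minus strand), that of Sec24d is chr3:123267459-123267488 (plus strand) and that of Tmed3 is chr9:89705228-89705257 (minus strand).
Kdelr3, far window: tgtcggcgtgggGACGTGagaagcgctgct
Kdelr3, near window: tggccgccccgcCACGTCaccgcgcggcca
Mia3: tgagcccttgctGACGTGtcactcgcagca
Sec24d: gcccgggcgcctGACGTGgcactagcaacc
Tmed3: gatttctccggaGACGTGgcagacactaag

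The second question was whether PPTx moved these genes within β-like cells, tested with edgeR over 4 PPTx and 4 control samples. None of the 31 members tested was called, against 0.307% of all genes tested called in either direction and 0.187% called higher. At an unadjusted p under 0.05 there were 7 of 31 members, against 9.42% of all genes. DESeq2 called 1, Tmed3, against 0.426% of all genes. The fitted values leaned to one side: 28 of 31 members were fitted higher and 3 (Tmed2, Sec23a and Lman2) lower, with a median of 0.20 against -0.01 over all genes, of which 48.6% were fitted higher. In 5 members, Tmed3, Sec13, Cope, Lman1 and Kdelr2, every PPTx sample lay above every control sample, and no member lay wholly below. Of all genes tested, 2.73% had PPTx samples wholly above control and 2.98% wholly below. Acinar markers summed to up to 42.0 CPM in control and up to 331 CPM in PPTx β-like cells. Markers of α-cells summed to 5019.8 to 6014 and 5944 to 7328 CPM and markers of PP-cells to 55.9 to 150.1 and 141 to 268 CPM in the same groups, with ductal markers at 430.2 to 473 and 394 to 847 CPM, and the part of these markers in the values of the members was not tested. Without the β-like cells that held replication transcripts the median of the members was 0.21 and none was called by edgeR.

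**Figure D4:**
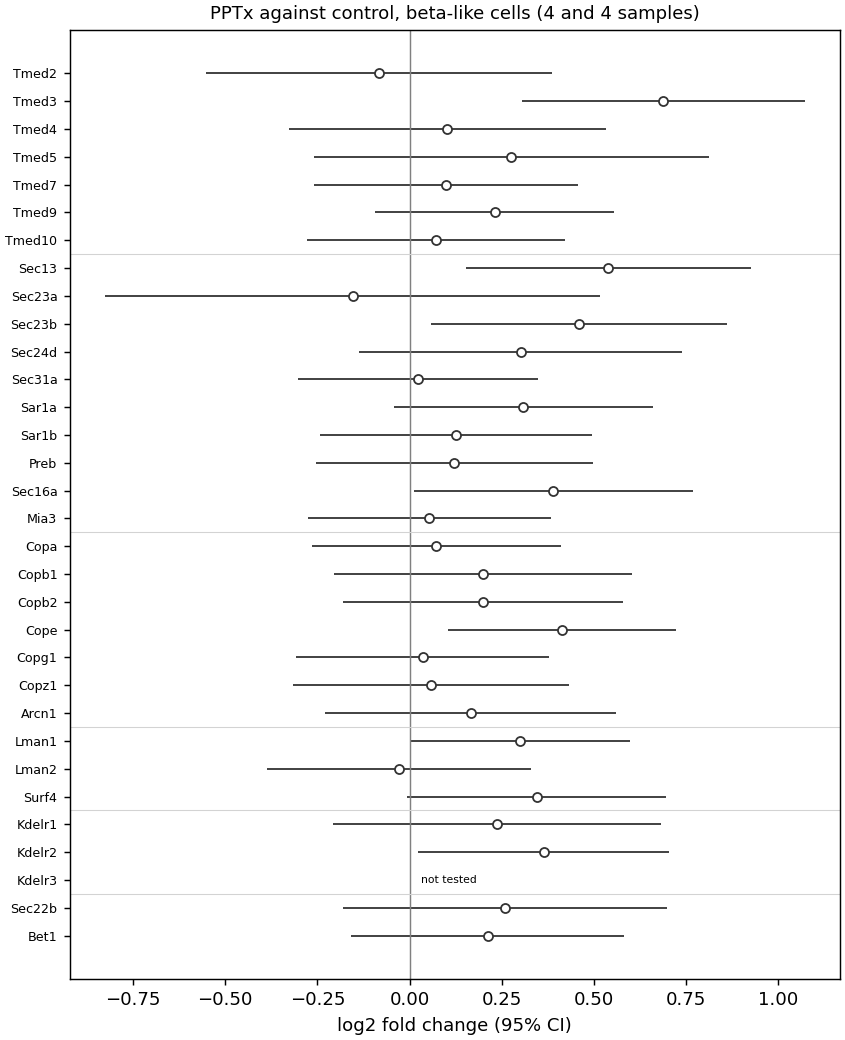
Log2 fold change of each member between PPTx and control β-like cells (4 samples each), with 95% intervals as lines and grey lines between roles. Of 31 points 28 lie to the right of 0, and none is filled because no adjusted p was under 0.05.

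Tmed3, a p24 protein on chr9:89699203-89705043 (GRCm38.p6), had the lowest p. Its levels were 601, 588, 847 and 1101 in control samples 1 to 4 and 1249, 1229, 1134 and 1499.8 in PPTx samples 1 to 4. Control sample 4 came within reach of PPTx sample 3, and the log2 fold change was 0.69 (SE 0.19, adjusted p = 0.148). Its call depends on the analysis: the adjusted p was 0.0337 without TMM factors (which moved the median of all genes to 0.12), 0.0484 with DESeq2, 0.0155 with no filter on low counts and 0.0347 without control sample 4. With the replicate number as a block it was 0.0161. Without Tmed3 the summed level of the other members was 10476 to 12604 in control and 12625 to 13855 in PPTx samples. Without the 5 members with most UMIs (Surf4, Lman1, Tmed3, Cope and Tmed9) it was 7679 to 8793 and 8448 to 9397, and the groups overlapped.

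In the COPII group, Sec13, a scaffold subunit of the outer coat, was at 238, 138, 227 and 240.1 in control and 300.4, 314, 311 and 288 in PPTx samples (log2 fold change 0.54, SE 0.19, adjusted p = 0.296). Sec23b was at 182, 275, 328 and 300.2 against 319, 480.1, 305 and 443 (0.46, SE 0.19, adjusted p = 0.452). Sec16a, a scaffold of ER exit sites, was at 238, 188, 181 and 157 against 217, 242, 244 and 240.2 (0.39, SE 0.18, adjusted p = 0.515). The PPTx samples of Sec13 lay close together above the controls, whereas Sec23b and Sec16a overlapped between the groups.

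In the COPI coat, Cope was at 629, 694, 743 and 767 in control and 970.1, 1015, 885 and 881 in PPTx samples (log2 fold change 0.41, SE 0.15, adjusted p = 0.338). All 7 COPI subunits were fitted higher, the other 6 between 0.04 (Copg1) and 0.20 (Copb1 and Copb2). Lman1 was at 923, 995, 1090.3 and 991 against 1234, 1289.7, 1165 and 1185 (0.30, SE 0.14, adjusted p = 0.527). Surf4 was at 685, 1082, 1276 and 1207 against 1321, 1471, 1212 and 1425 (0.34, SE 0.17, adjusted p = 0.541), with control sample 1 the lowest of the 8. Lman1 was separated between the groups by a narrow gap and Surf4 overlapped. Lman2 was at 574 ± 131 in control and 540.3 ± 64.5 in PPTx samples (SD, n = 4 each), with a log2 fold change of -0.03.

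Of the KDEL receptors, Kdelr2 was at 364, 457, 509 and 460.3 in control and 561, 720.1, 513 and 512 in PPTx samples (log2 fold change 0.36, SE 0.17, adjusted p = 0.504). Kdelr3 gave 25 UMIs in control and 38 UMIs in PPTx β-like cells, with levels of 21.7 ± 10.2 and 30.1 ± 6.24 (SD, n = 4 each, exact permutation test, two-sided p = 0.257, where 0.0286 is the smallest that 4 against 4 allows). Neither receptor passed its test.

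**Figure D5:**
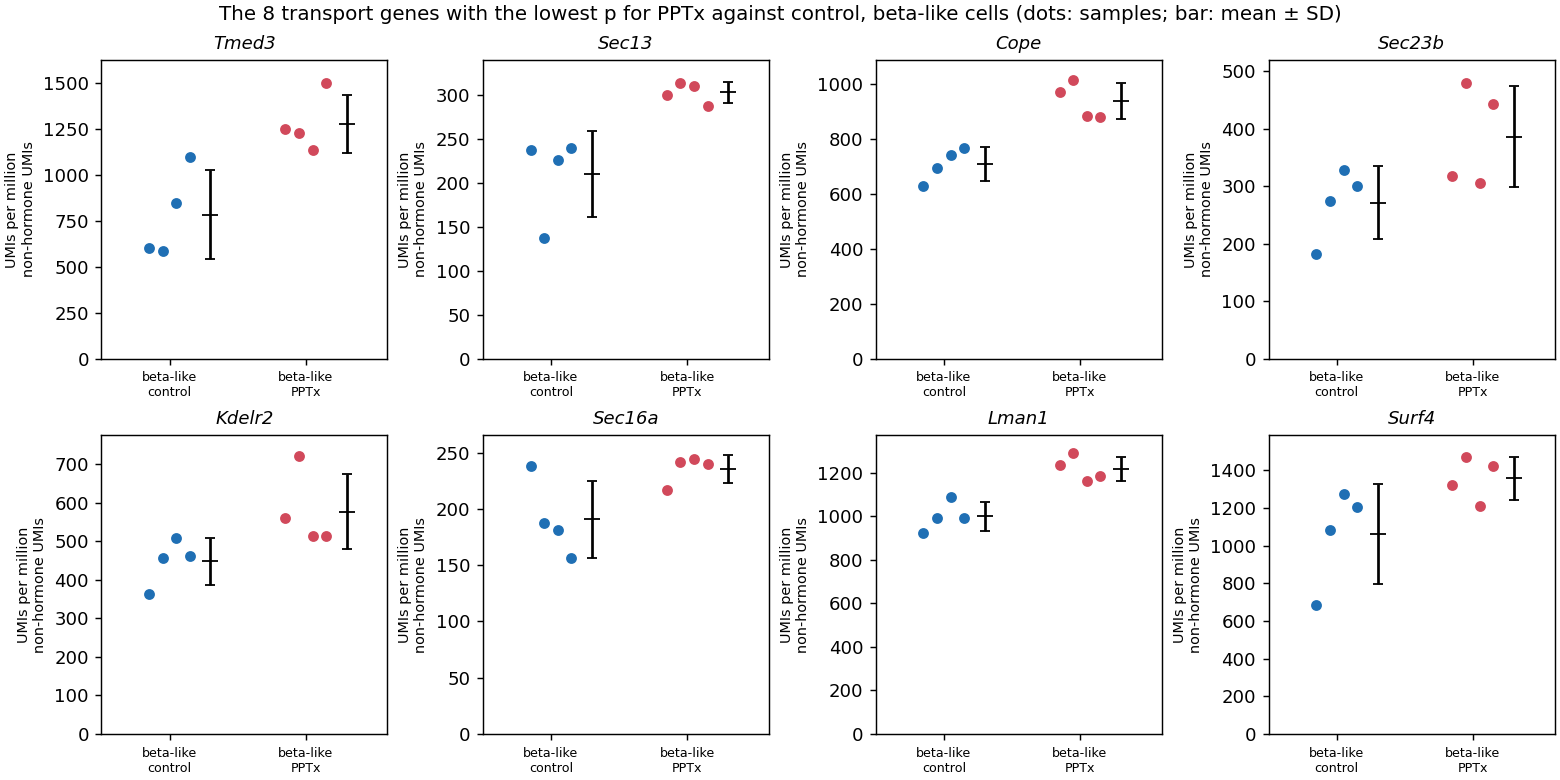
Levels per sample (CPM outside the hormone genes, vertical axis) in β-like cells for the 8 members with the lowest p between PPTx and control, with dots for samples and bars for mean ± SD. The PPTx dots of Sec13 (288 to 314) and Cope (881 to 1015) lie above all control dots, and those of Sec16a and Surf4 overlap the controls.

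In non-β hormone cells the PPTx comparison covered 27 members and none was called by edgeR, against 0.754% of all genes tested. At an unadjusted p under 0.05 there were 6 of 27 members, against 9.25% of all genes. DESeq2 called 0 members, against 0.754% of all genes. The median was 0.32 against 0.01 over all genes, with 22 of 27 fitted higher. In 5 members (Sar1a, Copa, Cope, Surf4 and Preb) all PPTx samples were above all control samples, as in 4.18% of all genes tested. Acinar markers summed to 0 to 22.2 CPM in the non-β cells of control and 63.3 to 420 CPM in those of PPTx samples, without overlap, and ductal markers to 205 to 645 and 420 to 1161 CPM, and their part in these values was not tested. The make-up of these cells moved with the operation, from mostly α-like to mostly PP-like, so cell type and operation cannot be told apart in the pooled values. Within PP-like cells alone, in samples with at least 5 of them, 16 members could be tested and 0 of 633 genes were called by edgeR, members included, so this fit shows no call for any gene. The members' median was -0.02 against 0.02 over all genes.

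The members with the lowest p in non-β cells included all 3 cargo receptors. Lman2 was at 0, 104, 185 and 189 in control and 277, 223, 538 and 157 in PPTx samples (log2 fold change 0.91, SE 0.36, adjusted p = 0.385). Preb was at 151, 62.7, 95.7 and 111 against 169, 161, 269 and 157 (0.90, SE 0.38, adjusted p = 0.417). Lman1 was at 227, 271, 232 and 311 against 262, 669.9, 316 and 419.9 (0.66, SE 0.29, adjusted p = 0.492). Of these, Preb was the one whose groups did not overlap. Copa was at 530.1, 543, 308 and 300.3 against 554, 598, 585 and 577 (0.57, SE 0.25, adjusted p = 0.486), and Copg1 was at 379, 334, 185 and 311 against 323, 419.8, 443 and 472 (0.53, SE 0.27, adjusted p = 0.552). Cope was at 303, 376, 472 and 456 against 493, 643, 775 and 787 (0.55, SE 0.24, adjusted p = 0.461). Control samples 3 and 4 were low in Copa, and control sample 3 was lowest in Copg1. Sar1a was at 0, 355, 314 and 256 against 462, 429, 490.4 and 367 (0.60, SE 0.29, adjusted p = 0.532), and Surf4 was at 606, 647, 492 and 634 against 801, 831, 728 and 1102 (0.46, SE 0.22, adjusted p = 0.536). Control sample 1 had 10 non-β cells, in which a count of 0 allows a level of up to 227 CPM (3 counts, counting error only), so its zeros for Lman2 and Sar1a bound these levels only loosely.

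Whether the PPTx effect differed between non-β and β-like cells was tested as an interaction over 32 members. None was called by edgeR, against 0.222% of all genes tested, and 0 by DESeq2, against 0.0277%. There were 4 of 32 members at an unadjusted p under 0.05, against 8.59% of all genes. The lowest p belonged to Lman2 (log2 difference of effects 0.85, SE 0.33, adjusted p = 0.341) and Tmed3 (-0.51, SE 0.21, adjusted p = 0.424). Tmed5 followed with -1.33 (SE 0.63, adjusted p = 0.536) and Copa with 0.52 (SE 0.25, adjusted p = 0.563). The next 4 were Copg1 (0.56), Preb (0.74), Mia3 (0.50) and Kdelr2 (-0.47). Positive values are larger fitted differences between PPTx and control in non-β cells, and no member had a shown difference between the cell types. The non-β cells were mostly α-like in control and mostly PP-like in PPTx samples. Cell type and operation therefore cannot be told apart in these estimates either.

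Finally, β-like cells with transcripts of replication genes were compared with the β-like cells of the same sample that held none. Of the β-like cells, 40 held at least 2 UMIs over 10 replication genes (10 control and 30 PPTx cells), 874 held none, 26 with exactly 1 were left out, and 3 PPTx samples had at least 5 such cells (5, 14 and 8). None of the 30 members tested was called by edgeR, against 3.84% of all genes tested called in either direction and 0.595% called lower. At an unadjusted p under 0.05 there were 4 of 30 members, a share near that of all genes in either direction (13.7%). These 4 were all fitted lower, where 6.03% of all genes were lower at that p. DESeq2 called 0 members, against 2.52% of all genes. The fitted values were below 0 for 27 of 30, with a median of -0.35 against -0.08 over all genes, and above 0 for Tmed4, Tmed5 and Tmed9. The summed level was 11464, 11901 and 12600 in the cells with replication transcripts of PPTx samples 1 to 3 and 14167, 15398 and 14410 in those without. The summed level of β-cell markers was also lower in these cells, at 6325 to 8833 CPM against 11410 to 14048 CPM in the PPTx β-like cells without replication transcripts. The α-cell markers were higher without overlap (7779 to 11795 against 5820.2 to 7383 CPM), fibroblast markers reached 555 CPM in 1 sample against at most 4.35 CPM, and the part of these markers was not tested.

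The lowest p in that comparison belonged to COPII genes. Sec16a was at 49.4, 106 and 129 in cells with replication transcripts of PPTx samples 1 to 3 and 235, 257 and 259 in the β-like cells without them (log2 fold change -1.35, SE 0.49, adjusted p = 0.150, lower in 3 of 3 samples). Sec31a, the outer coat partner of Sec13, was at 445, 212 and 129 against 437, 502 and 436 (-0.97, SE 0.35, adjusted p = 0.150, 2 of 3 samples). Sec23b was at 198, 317 and 161 against 334, 493 and 319 (-0.77, SE 0.35, adjusted p = 0.319, 3 of 3 samples). Sec16a and Sec23b did not overlap, and Sec31a was at the level of the other cells in PPTx sample 1. The levels of Sec16a rest on 9 UMIs in cells with replication transcripts and 257 UMIs in those without. In the former cells of PPTx sample 1, a count of 0 allows up to 148 CPM. Sec16a passed the filter on low counts through the cells without replication transcripts, where it was high. Lman1 was at 1038, 899 and 900.0 against 1244, 1335 and 1213 (-0.46, SE 0.21, adjusted p = 0.319, 3 of 3 samples), and Cope was at 791, 688 and 836 against 997, 1052 and 878 (-0.37, SE 0.22, adjusted p = 0.512). Preb was at 148, 132 and 161 against 297, 287 and 212 (-0.86, SE 0.44, adjusted p = 0.396). These 3 genes were lower in each sample and not called. Tmed10 was at 198, 370.3 and 321 against 428, 433 and 540.0 (-0.62, SE 0.32, adjusted p = 0.404), and Copb1 was at 148, 132 and 386 against 412, 348 and 313 (-0.68, SE 0.39, adjusted p = 0.485, 2 of 3 samples). Without PPTx sample 1, Sec31a was called at -1.49. With β-like cells holding no replication transcript alone, the summed level was 11228 to 13517 in control and 14167 to 15398 in PPTx samples, so the groups stayed apart.

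A wider list of 51 other genes was counted the same way, and 50 were found in the tables. Most belong to this transport route, such as ARF GTPases, tethers and further coat subunits, and Surf1 does not. In non-β against β-like cells, 31 could be tested, with 8 lower and 2 higher, where 22.3% of all genes were lower and 21.4% higher. Mcfd2, the soluble partner of the Lman1 protein in carrying coagulation factors, had a log2 fold change of -1.52, the vesicle tether Uso1 of -0.90 and Arfgap3 of -1.04, and Tmed8 and Arf3 were higher at 0.80 and 0.50. In α-like cells 34 were tested and 5 were lower, among them Mcfd2 at -1.88 and Uso1 at -1.53, against 14.2% of all genes. In PP-like cells 34 were tested, with 5 lower and 2 higher, against 13.9% and 12.4% of all genes. The shares called lower were thus near those of all genes. In β-like cells after PPTx 43 were tested and none was called by edgeR, with a median of 0.07.

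The ER lumen proteins that KDEL receptors return, 11 chaperones and folding enzymes, were given beside the receptors. In β-like cells after PPTx, 3 of 11 were called higher, against 0.187% of all genes: Sdf2l1 at 1.06 (adjusted p = 0.00933), Creld2 at 1.04 (adjusted p = 0.012) and Pdia6 at 0.68 (adjusted p = 0.0376). All 11 were fitted higher, with a median of 0.61, against 0.20 for the transport genes. In non-β against β-like cells, 10 of 11 were lower (22.3% of all genes) with a median of -1.29, with Sdf2l1 at -2.59, Creld2 at -2.03, Manf at -1.39, Pdia6 at -1.29 and Calr at -1.19. In α-like cells 9 of 11 were lower (14.2% of all genes) and in PP-like cells 10 of 11 (13.9%). Of 6 transcription factors that act in ER stress and secretory gene expression, Atf6 was lower in non-β cells (-0.95, adjusted p = 0.000627), in α-like cells (-1.39, adjusted p = 0.0216) and in PP-like cells (-0.89, adjusted p = 0.0374), and none of 5 tested was called after PPTx. Creb3l1 was also called lower in α-like cells (adjusted p = 0.000252), where it had 0, 1 and 1 UMIs in control samples 2, 3 and 4, too few for a fold change to be given.

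Several members of the coats and of the p24 family had levels that the tests did not separate between the endocrine types. In means ± SD over control β-like (n = 4), control α-like (n = 3) and PPTx PP-like cells (n = 4), Tmed10, a p24 partner of Tmed2, was at 470.2 ± 54.2, 356 ± 199 and 417 ± 28.0. Its log2 fold change was -0.29 (95% interval -0.75 to 0.16) in α-like and -0.01 (-0.37 to 0.35) in PP-like cells. Copb2, the beta-prime subunit of COPI, was at 342 ± 76.1, 285 ± 113 and 394 ± 43.8, with -0.07 (-0.55 to 0.41) and 0.11 (-0.27 to 0.49). The tests thus separated neither gene from β-like cells. Copb1, the beta subunit, was at 278 ± 37.4, 217 ± 11.3 and 268 ± 86.3, with -0.12 (-0.68 to 0.43) and -0.10 (-0.54 to 0.35). Arcn1, the delta subunit, was at 219.8 ± 27.0, 164 ± 65.0 and 247 ± 99.6, with -0.32 (-0.94 to 0.30) and -0.01 (-0.48 to 0.47). Copz1, the zeta subunit, was at 277 ± 56.7, 197 ± 105 and 225 ± 119, with -0.13 (-0.68 to 0.43) and -0.41 (-0.88 to 0.06). The mean of each of these 3 subunits was lowest in α-like cells, and for each of them the α-like samples overlapped the others. Sec31a was at 421 ± 41.8, 255 ± 58.7 and 321 ± 150.4, and its value in α-like cells of -0.57 (-1.05 to -0.08) had an adjusted p of 0.0786. Sec22b, the SNARE on ER-derived vesicles, was at 195 ± 47.5, 143 ± 42.7 and 238 ± 80.4, with -0.24 (-0.89 to 0.41) and 0.02 (-0.47 to 0.51). Tmed4 was at 234 ± 74.1, 185 ± 43.0 and 204 ± 64.2 and Tmed7 at 286 ± 39.7, 261 ± 60.4 and 318 ± 46.8, and neither was called between these classes with TMM factors.

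By edgeR with TMM factors, the low-count filter and all samples, 20 of the 32 members were called at least once, each time between cell types, against 25.6% of all genes tested in at least 1 comparison, many of which could be tested in fewer comparisons than the members. The 12 not called in that setting were Tmed3, Tmed4, Tmed7, Tmed10, Sec23a, Sec31a, Copb1, Copb2, Copz1, Arcn1, Kdelr1 and Sec22b. In β-like cells the members ranged from 63 UMIs (Kdelr3) to 2954 UMIs (Surf4) over all samples, so differences in the least counted members had to be large to pass a test.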

How the data were processed

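Single-cell RNA was measured from islets of 4 control and 4 PPTx samples. Per the labels and the study's methods, cells were isolated on a ddSEQ instrument, and the methods name a SureCell 3′ kit while the labels name a Chromium 3′ kit. The submitters' processing notes name bcl2fastq and mm10. The deposited tables hold raw UMI counts per gene and cell. Such counts tag the 3′ end and were not scaled by gene length.

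A cell was used if it had between 100 and 3000 detected genes and between 100 and 20000 UMIs. A cell took the class of its highest hormone where that was at least 2 times the second and at least 5% of its UMIs. Counts were summed per sample and class (at least 10 cells, or 5 for PPTx within PP-like cells alone and for cells with replication transcripts) and tested with edgeR 4.0.16 in R 4.3.3 (filterByExpr, TMM, quasi-likelihood, two-sided), with Benjamini-Hochberg adjustment over all genes tested and a threshold of 0.05. Comparisons between classes had the sample as a block. Exact tests used scipy 1.17.1 in Python 3.11.15. The code was tested on simulated data.

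The members and the other lists were chosen with earlier results of these data known. Values per sample, or their range over samples in comparisons of all non-β cells with β-like cells, are printed for the members called, for the 12 with the lowest p where more were called, and for the 8 with the lowest p where fewer than 8 were, and for the interaction only the estimates. Alternatives were no TMM factors, hormone genes removed before scaling, DESeq2 1.42.0, no low-count filter, no limits on cells, hormone ratios of 1 and 5, cells thinned to 2000 UMIs, possible doublets left out (Scrublet in scanpy 1.11.5, the top 6% of scores of each sample, ties included, 128 of 1232 cells), the replicate number as a block and each sample left out in turn. No doublet was removed for the reported values. Replicate counts differed by more than sampling noise, so all 8 samples were counted as separate.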

Additional observations from a re-analysis of the deposited data

Results flagged for a closer look

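In all, 3 values stood apart from the other samples of their group, out of 36 groups of 4 samples examined by Dixon's ratio at its 95% critical value, which chance passes in about 1 group of 20. Sec13 was at 138 in the β-like cells of control sample 2, against 227 to 240.1 in the other control samples. Sec16a was at 217 in the β-like cells of PPTx sample 1, against 240.2 to 244 in the other PPTx samples. Preb was at 269 in the non-β hormone cells of PPTx sample 3, against 157 to 169 in the others.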

How the results depend on the processing

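No member changed direction under any alternative among the members whose values are given per sample. Of 226 refits of such members in non-β against β-like cells 217 kept their side of the threshold, as did 115 of 142 in α-like, 135 of 166 in PP-like, 147 of 152 in PPTx against control β-like cells, 143 of 143 in non-β cells, 134 of 135 in the interaction and 107 of 111 in cells with replication transcripts. In PPTx against control β-like cells 1 member (Tmed3) was called without TMM factors (0.528% of all genes), with DESeq2 (0.426%) and with no low-count filter (0.506%). With each sample left out, 0 to 1 were called (0.0957% to 0.347% of all genes). In non-β against β-like cells 9 of 29 members were called without TMM factors (1 higher, Tmed7) and 9 of 22 with thinned cells, below the 44.4% and 49.9% of all genes called in either direction there. In α-like cells 9 of 31 were called without TMM factors (36.4% of all genes), 5 of 31 with DESeq2 (10.1%), 8 of 23 with thinned cells (34.5%) and 7 to 13 with each sample left out (15.1% to 17.6%). In PP-like cells 6 of 31 were called with DESeq2 (16.3% of all genes), 19 of 32 with no low-count filter (8.58%), 5 of 27 with thinned cells (28.1%) and 6 to 11 with each sample left out (20.1% to 23.2%). With thinned cells the share of members called in either direction was thus near that of all genes in α-like cells and below it in PP-like cells. The member calls with thinned cells were all lower, and the shares of all genes are for both directions. The interaction gave 1 of 32 (Tmed3) without TMM factors, where 2.47% of all genes were called. Cells with replication transcripts gave 3 of 32 (Lman1, Sec16a and Sec31a) with no low-count filter (1.71% of all genes). With each sample left out they gave 0 to 1 (2.01% to 3.29% of all genes). Without TMM factors the median of all genes moved to -0.15 in non-β cells after PPTx, -0.29 in the interaction and 0.08 in cells with replication transcripts. Thinning left fewer genes to test, and the other causes were not tested. With no low-count filter more genes were tested, 13619 against 3221 in PP-like cells, among them genes with few counts. The shares of all genes in that setting are therefore not like those with the filter. Outside the hormone genes the ratio of summed levels was 0.567 for α-like and 0.678 for non-β against β-like cells.

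Same-numbered control and PPTx samples had correlations of deviations of 0.0623, 0.0351, 0.102 and 0.151. Those of differently numbered samples ran from -0.115 to 0.0601. The reported fits did not take the numbers as pairs, and whether the numbers mark pairs was not tested. With the replicate number as a block 1 member (Tmed3, log2 fold change 0.73) was called in β-like cells after PPTx and 0 in non-β cells. Of all genes, 0.682% were called with this block in β-like cells, against 0.307% without it, and 0.343% in non-β cells.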

Other observations

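δ-like cells entered no comparison, since no sample held 10 of them. The 13 δ-like cells of all samples gave 192 UMIs of the 32 transport genes, a level of 8527 CPM outside the hormone genes (exact Poisson 95% interval 7363 to 9822, which covers counting error only).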
